A study of Homo sapiens with 80 samples.

Results

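Transcript levels of 10 genes that organise chromosomes in the nucleus were followed in Jurkat T cells: the cohesin ring subunits SMC1A, SMC3 and RAD21, the cohesin subunits STAG1 and STAG2, the cohesin loader NIPBL, the cohesin release factor WAPL, the boundary factor CTCF, and the condensin subunits SMC2 and SMC4. The genes were taken by symbol, and each matched 1 of the 60663 genes in the table. Jurkat clone E6-1 is an established human T lymphocyte line, and all libraries came from it, without any genetic change.

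In the 9 g time course, cells in 1 mL pipettes were exposed to 9 g in a pipette centrifuge for 20 s, 75 s, 3 min, 5 min, 7 min, 9 min, 15 min or 60 min, and the groups are named by that time, in seconds for hypg20s and hypg75s and in minutes from hypg3 to hypg60. Controls stayed at 1 g in pipettes for 15 min (Ctrl) or 60 min (Ctrl60). The count table names the Ctrl60 libraries with HEPES, a buffer, and those of Ctrl and hypg60 without it. Whether the medium differed is not given in the sources used here, and in comparisons with Ctrl60 such a difference could not be told apart from that of time or acceleration. In a separate experiment, cells were spun at 300 g for 5 min, a force used in routine cell culture, and lysed 1 min (wait1min), 4 min (wait4min) or 15 min (wait15min) after the stop, or heated at 42 °C for 5 min (heat). The control of that experiment (Ctrl300g) was fixed directly, without centrifugation. Each 9 g group had 6 libraries and each 300 g or heat group had 4. Library 75 of hypg15 was left out, which left 5, since it held no count for 7 of the 10 genes.

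Cohesin is a ring of a pair of SMC proteins closed by the kleisin RAD21, and a STAG protein sits on the kleisin. The ring holds sister chromatids together and draws interphase chromatin into loops. NIPBL loads cohesin and drives loop growth, WAPL releases it, and CTCF stops it at loop boundaries. Condensin, built on SMC2 and SMC4, compacts chromosomes for mitosis.

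Total counts of the 79 libraries ran from 22634465 to 41893490. Levels are given as CPM, the usual scaling of counts to library size, with library sizes adjusted by the trimmed mean of M values (TMM). All 8 T cell markers had a mean of at least 10 CPM and their sum ran from 1671 to 3671 CPM. Of 3 monocyte markers none reached that mean, with sums of 0.155 to 0.829 CPM, and of 3 B cell markers 1 did, with sums of 24.1 to 77.2 CPM. The libraries were bulk RNA, so fewer cells of a type and less RNA per cell cannot be told apart. Library 44 of hypg60 and library 49 of Ctrl300g stood apart from their groups in several of the 10 genes, and the results that rest on them are given with and without them. Nothing in the labels says that the libraries of a group came from separate cultures, so p-values measure the spread between these libraries only.

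The 10 genes lie on 7 chromosomes of GRCh38. SMC1A and STAG2 are X-linked, at chrX:53374149-53422728 and chrX:123960212-124422664. SMC3 and WAPL are on chromosome 10, at chr10:110567695-110606048 and chr10:86435256-86521792, and STAG1 and SMC4 are on chromosome 3, at chr3:136336236-136752403 and chr3:160399274-160434954. The others are NIPBL at chr5:36876769-37066413, CTCF at chr16:67562467-67639177 and SMC2 at chr9:104094260-104141419. Counts were over all exons of a gene, which ranged from 5683 bases in SMC3 to 12519 bases in NIPBL. Exons on the other strand overlapped 22.0% of the exon length of SMC4, 21.2% of STAG1, 13.1% of CTCF and 12.9% of RAD21, and the counting used strand. Of the genes 8 were poor in G and C, with an exon GC content, taken from the longest transcript, of 36.6% in STAG2 to 40.8% in WAPL. CTCF at 45.8% and SMC1A at 47.2% were closer to the middle of the genes tested, at percentiles 37.2 and 42.5, whereas the other 8 lay between percentile 3.69 (STAG2) and 17.3 (WAPL).

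The sequence before the RefSeq starts of the genes was compared, and whether it bears on the changes at 300 g was not tested. RefSeq windows on GRCh38.p14 were matched for 9 of the 10 genes, and none was matched for RAD21. The stretches of the 3 genes with the largest changes at 300 g, and of CTCF, which moved the other way, are printed 5′ to 3′ on the strand of the gene. They hold no annotated exon. Starts are those of RefSeq. The Ensembl genes STAG2 and SMC4 begin upstream of their whole windows, so the STAG2 stretch lies inside the Ensembl gene. The Ensembl genes STAG1, SMC2 and CTCF begin within their windows, and the stretches of SMC2 and CTCF end before those Ensembl starts. Capitals mark a match to CCAAT or GGGCGG on either strand. They are chr10:110567541-110567690 for SMC3, chrX:123960369-123960518 for STAG2, chr9:104094110-104094259 for SMC2 and chr16:67562310-67562406 for CTCF.
SMC3: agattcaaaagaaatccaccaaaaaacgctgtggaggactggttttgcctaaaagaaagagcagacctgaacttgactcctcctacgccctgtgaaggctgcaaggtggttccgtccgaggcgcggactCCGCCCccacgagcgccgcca
STAG2: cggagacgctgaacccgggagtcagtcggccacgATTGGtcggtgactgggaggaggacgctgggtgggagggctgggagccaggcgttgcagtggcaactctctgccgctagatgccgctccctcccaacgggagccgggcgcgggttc
SMC2: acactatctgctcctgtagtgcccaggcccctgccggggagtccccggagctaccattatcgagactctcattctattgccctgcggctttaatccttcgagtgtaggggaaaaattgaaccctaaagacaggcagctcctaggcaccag
CTCF: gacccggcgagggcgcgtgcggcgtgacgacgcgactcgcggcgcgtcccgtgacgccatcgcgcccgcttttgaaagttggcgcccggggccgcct

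In the 250 bases before the start, the SP family motif GGGCGG was found in 7 of the 9 genes (SMC1A, SMC3, STAG1, STAG2, NIPBL, WAPL and CTCF) and in 42.6% of all 35116 RefSeq windows of the same length. The CCAAT box was found in STAG1, STAG2 and WAPL and in 32.0% of all windows. The E-box CACGTG and the TATA motif TATAAA were in none of the 9, against 6.34% and 10.7% of all windows. The motifs GAANNTTC, part of a heat shock element, and CGCATGCGC, the NRF1 motif, were each found in SMC4 alone, against 5.78% and 1.64% of all windows. All motifs were searched on both strands. CTCF, which moved against the other genes at 300 g, shared GGGCGG with 6 of them. The GC content of these upstream windows ran from 45.2% in SMC4 to 77.2% in WAPL, with a median of 58.0% over all windows.

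Per kilobase of exon, RAD21 (chr8:116845934-116874776) was the most abundant transcript in Ctrl at 35.3 ± 3.88 RPKM (CPM per kilobase of exon, SD, n = 6), followed by CTCF at 21.5 ± 0.575 and SMC1A at 19.8 ± 0.964. SMC4 stood at 10.1 ± 1.55 RPKM, and WAPL, STAG2, STAG1 and SMC2 lay close together between 8.01 and 6.52. NIPBL at 2.69 ± 0.759 and SMC3 at 2.28 ± 0.492 were the lowest. In this order, the libraries of RAD21 and CTCF, of SMC1A and SMC4, and of SMC2 and NIPBL did not overlap, and those of all other neighbours did. The cohesin ring partners RAD21 and SMC3 were thus 15.5-fold apart in level per length. Ctrl60 showed the same first 6 places and a span of 14.4-fold. In Ctrl300g the order began with CTCF at 24.6 ± 0.421 RPKM, and RAD21 was at 22.1 ± 2.28. RAD21 and STAG1 were both lower there, in CPM, than in Ctrl: 124 to 154 against 200.0 to 263 CPM for RAD21, and 30.6 to 33.7 against 46.3 to 66.9 CPM for STAG1. The controls belong to different experiments with different cell densities, and the difference was not tested.

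Ctrl60 and Ctrl did not differ detectably in any of the 10 genes. In edgeR's quasi-likelihood test 0 of 10 passed an adjusted p-value of 0.05, 0 of 10 had an unadjusted p under 0.05, and 0 of 10 passed in DESeq2. Of all genes tested, 0.0124% were called. The log2 differences ran from -0.10 (STAG1) to 0.13 (NIPBL), with 95% intervals as wide as -0.33 to 0.55 for SMC2.

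**Figure D1:**
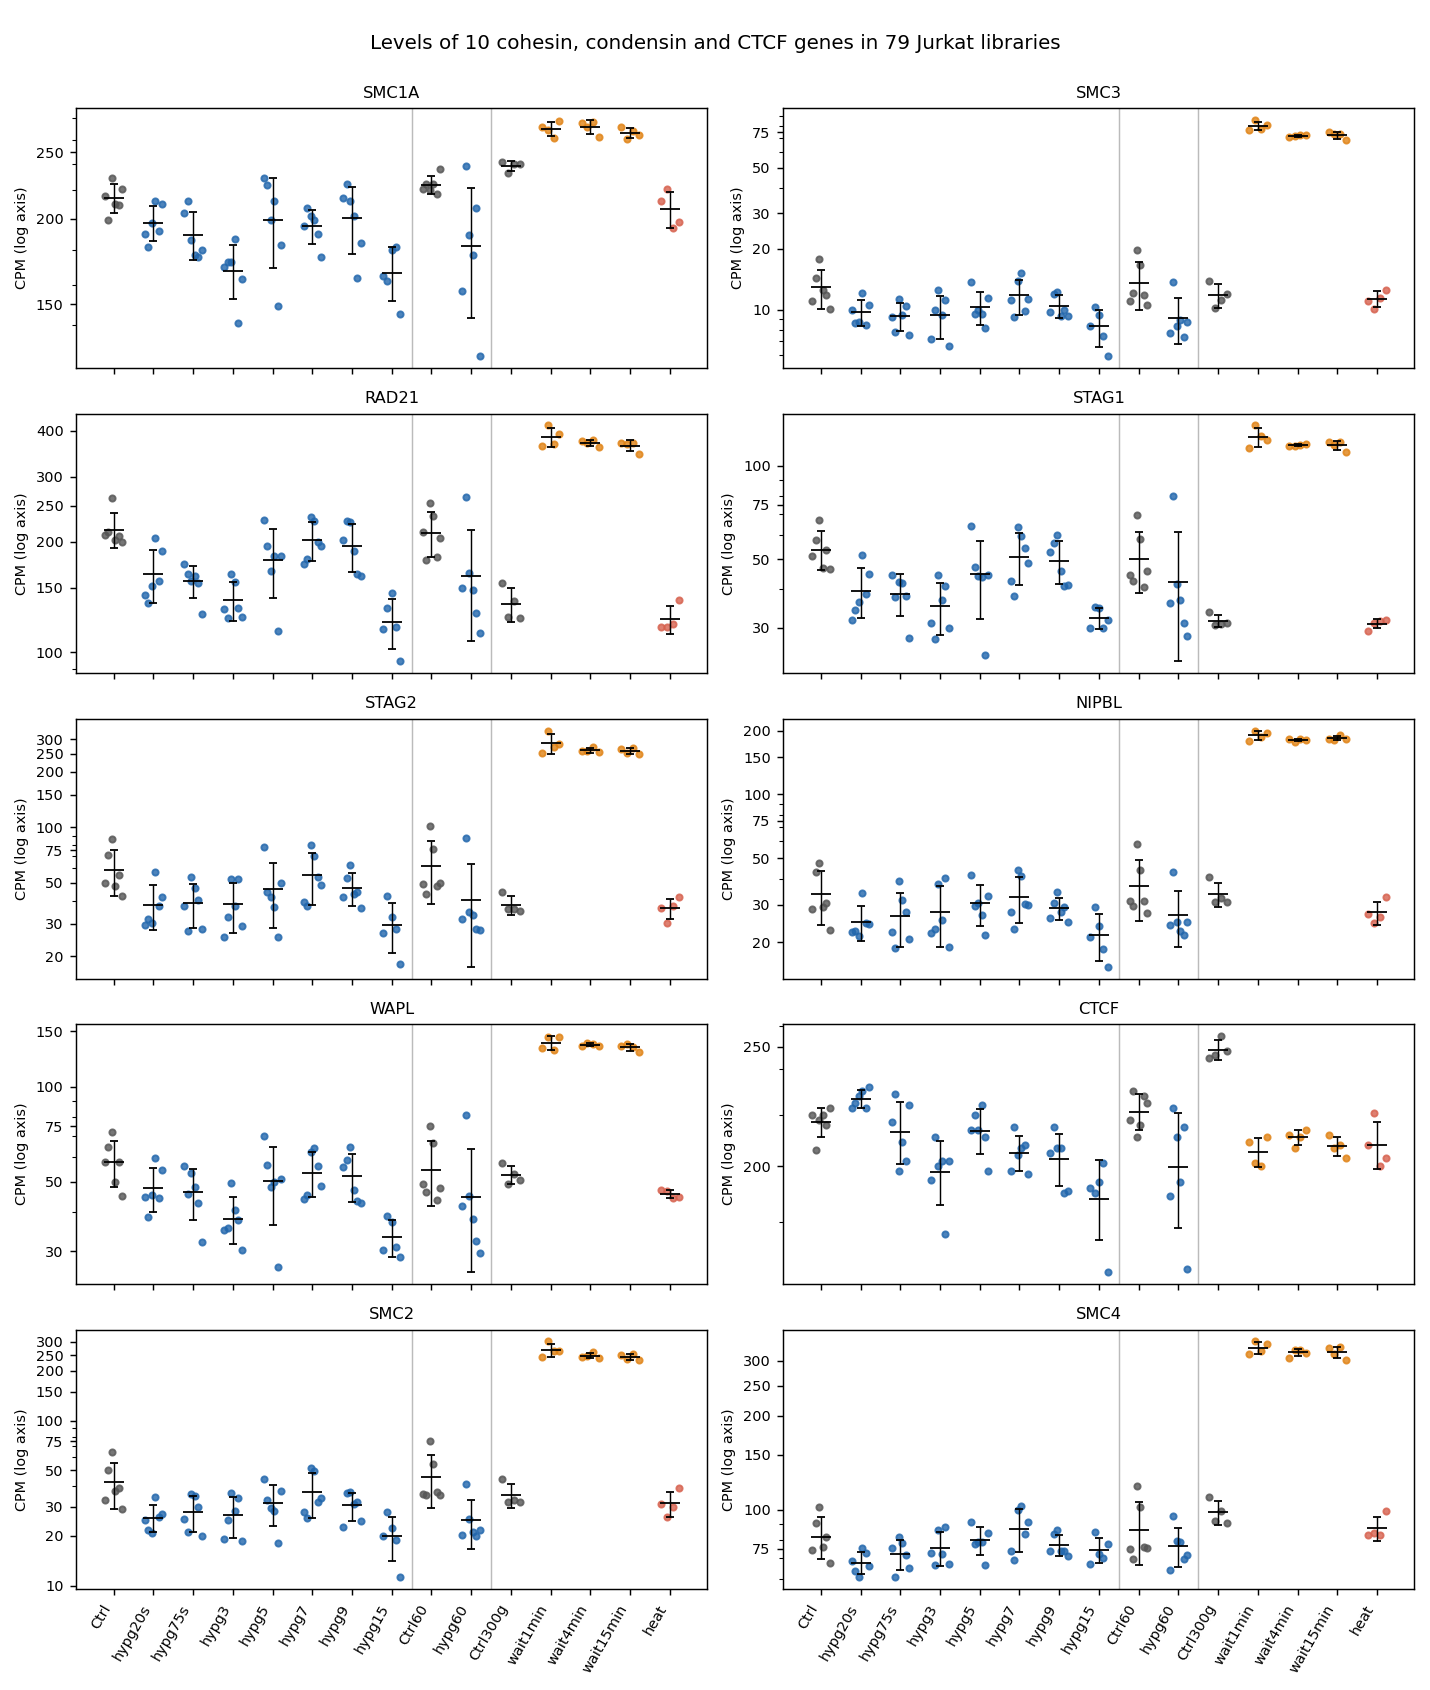
CPM of each gene (log axis) in every library, by sample group, with the group mean and 1 SD. All genes but CTCF are higher in wait1min, wait4min and wait15min than in Ctrl300g, and CTCF is lower. SMC3 goes from 10.2 to 13.9 CPM in Ctrl300g to 77.1 to 85.9 CPM in wait1min.

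Centrifugation at 300 g was compared with Ctrl300g, to follow these transcripts after a routine spin. Ctrl300g was fixed directly, so time and handling cannot be told apart from acceleration in these comparisons. At 1 min after the stop, 9 of the 10 genes were upregulated (SMC1A by the least, and lower once exon length was corrected) and CTCF was downregulated, and no library of wait1min overlapped the range of Ctrl300g in any of the 10. The 3 largest changes were a 7.45-fold rise of SMC2, a 7.34-fold rise of STAG2 and a 6.66-fold rise of SMC3. In this comparison 81.5% of all genes tested were called, with 41.4% of those tested higher and 40.1% lower, and libraries were apart in 76.6%, so being called was common here. The median log2 fold change of the 10 genes was 1.83, beside 0.01 over all genes and 1.76 over the 1692 genes in the lowest decile of GC content. Of all genes called, 49.2% were lower with TMM scaling, 38.0% with total counts alone and 59.2% with a correction for GC content.

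Among the SMC subunits of the ring, SMC3 was at 10.2, 11.2, 12.0 and 13.9 CPM in Ctrl300g and at 77.1, 78.1, 81.0 and 85.9 CPM in wait1min. It rose by a log2 fold change of 2.73 ± 0.07 (SE), with an adjusted p of 9.52e-16 in edgeR. Its partner SMC1A was at 233, 240.0, 240.0 and 242 CPM and went to 262, 269, 272 and 278 CPM. The groups of SMC1A were apart as well, but its change was small, at 0.15 ± 0.03 (edgeR adjusted p 5.71e-04). The kleisin RAD21 rose from 124, 125, 138 and 154 CPM to 365, 369, 393 and 414 CPM, a log2 fold change of 1.48 ± 0.06 (edgeR adjusted p 2.14e-13).

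The STAG subunits, of which a cohesin complex carries either one, both rose. STAG2 was at 35.2, 36.0, 36.3 and 44.4 CPM in Ctrl300g and at 254, 271, 281 and 333 CPM in wait1min, a log2 fold change of 2.88 ± 0.08 (edgeR adjusted p 2.37e-15). STAG1 was at 30.6, 30.8, 31.1 and 33.7 CPM and went to 114, 121, 125 and 135 CPM, a log2 fold change of 1.94 ± 0.05 (edgeR adjusted p 1.71e-15). STAG2 was above STAG1 in CPM in every library of both groups, and the gap between the paralogs was wider after the spin.

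Loader and release factor rose together and by unequal amounts. NIPBL went from 31.0, 31.1, 32.5 and 40.5 CPM to 179, 186, 196 and 200.0 CPM (log2 fold change 2.46 ± 0.07, edgeR adjusted p 2.38e-15). WAPL went from 49.1, 50.7, 52.8 and 57.1 CPM to 131, 133, 144 and 144 CPM (1.36 ± 0.05, edgeR adjusted p 4.18e-14). NIPBL was below WAPL in CPM in Ctrl300g and above it in wait1min.

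CTCF, the zinc finger protein at loop boundaries, was the single gene of the 10 that fell. It was at 245, 246, 248 and 255 CPM in Ctrl300g and at 200.0, 201, 209 and 211 CPM in wait1min, a log2 fold change of -0.31 ± 0.03 (edgeR adjusted p 1.89e-07). The lowest control library stood above the highest centrifuged one. With libraries scaled by total counts alone, the log2 fold change was -0.06, the adjusted p 0.122 in edgeR, and the call was lost. That scaling moved the median of all genes up by 0.24 in this comparison.

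The condensin subunits SMC2 and SMC4, which form 1 dimer, both rose. SMC2 went from 32.0, 32.3, 32.9 and 44.2 CPM to 244, 263, 265 and 302 CPM (log2 fold change 2.90 ± 0.09, edgeR adjusted p 5.07e-15). SMC4 went from 91.0, 92.3, 98.9 and 110.0 CPM to 315, 322, 340.0 and 346 CPM (1.72 ± 0.05, edgeR adjusted p 7.60e-15). SMC4 was above SMC2 in CPM in every library of both groups, and by a smaller ratio after the spin.

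At 4 min and at 15 min after the stop, 9 genes were again higher and CTCF lower than in Ctrl300g, where 82.2% and 82.3% of all genes tested were called. STAG2 was at 255 to 273 CPM in wait4min and at 250.0 to 270.0 CPM in wait15min, SMC2 at 240.0 to 259 and at 232 to 253 CPM, and CTCF at 207 to 214 and at 203 to 212 CPM. With total counts alone the log2 fold changes of CTCF were -0.0095 and -0.024, and neither passed (edgeR adjusted p 0.713 and 0.352). The member medians of the log2 fold change were 1.77 in both, beside 0.01 over all genes in both. These 3 comparisons share the Ctrl300g libraries. In the direct comparison of wait15min with wait1min, edgeR called 0 of 10 genes, as did DESeq2, with 0.149% of all genes called. An unadjusted p under 0.05 was found for 5 of 10. The 0.149% is at the adjusted threshold, and no share of all genes is given at the unadjusted one. All log2 differences lay between -0.15 (SMC3) and 0.02 (CTCF). SMC3 was the single gene of the 10 whose libraries were apart, at 68.3 to 74.8 CPM in wait15min against 77.1 to 85.9 CPM in wait1min, where 2.87% of all genes were wholly below.

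Leaving out library 49, the Ctrl300g library with the highest STAG2, NIPBL and SMC2, kept all 10 genes called in the 3 comparisons. The log2 fold changes in wait1min then were 2.97 for STAG2, 3.04 for SMC2 and -0.30 for CTCF.

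Heat at 42 °C was compared with the same control, so time and handling cannot be told apart from heat. None of the 10 genes rose with heat, and 4 fell, where 20.8% of all genes tested were called, 10.6% higher and 10.2% lower. Of all genes called 48.9% were lower. This share was 34.2% with total counts alone, where 2 of the 10 genes and 20.6% of all genes passed, 70.4% with GC content corrected and 73.4% with all groups in 1 model. The member median of the log2 fold change was -0.15, beside 0.01 over all genes. CTCF was at 200.0, 203, 208 and 221 CPM, below every Ctrl300g library (log2 fold change -0.24 ± 0.03, edgeR adjusted p 8.46e-05). SMC1A was at 194, 198, 212 and 221 CPM, also below every control library (-0.19 ± 0.04, edgeR adjusted p 0.00185), and so was WAPL, at 44.2, 44.6, 46.7 and 47.1 CPM (-0.18 ± 0.05, edgeR adjusted p 0.0137). These 3 genes were the ones whose libraries were apart from the control, where 13.7% of all genes were wholly below it. NIPBL fell from 31.0 to 40.5 CPM to 24.6 to 32.6 CPM, with overlapping libraries (-0.27 ± 0.09, edgeR adjusted p 0.0430), and it did not pass without any one of libraries 49 and 51 of Ctrl300g and 65, 66 and 67 of heat, with values of -0.35 to -0.17 when 1 library was left out.

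For SMC3, STAG1 and STAG2 the change with heat was close to 0: -0.04 (95% interval -0.23 to 0.14), -0.01 (-0.11 to 0.08) and -0.04 (-0.20 to 0.13). The intervals end well short of the changes at 300 g. Set against wait1min directly, 9 of the 10 genes were lower in heat, by a log2 fold change of -0.43 (SMC1A) to -3.13 (SMC2), where 42.0% of all genes were called lower. CTCF did not pass, at -0.03 (95% interval -0.10 to 0.05, edgeR adjusted p 0.548), and its libraries overlapped at 200.0 to 221 CPM in heat and 200.0 to 211 CPM in wait1min. With total counts alone CTCF was lower in heat than in wait1min (-0.15, edgeR adjusted p 0.00487), and with GC content corrected it was higher (0.27, edgeR adjusted p 1.53e-06). Those settings moved the median of all genes by -0.12 and by 0.11 in this comparison.

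**Figure D2:**
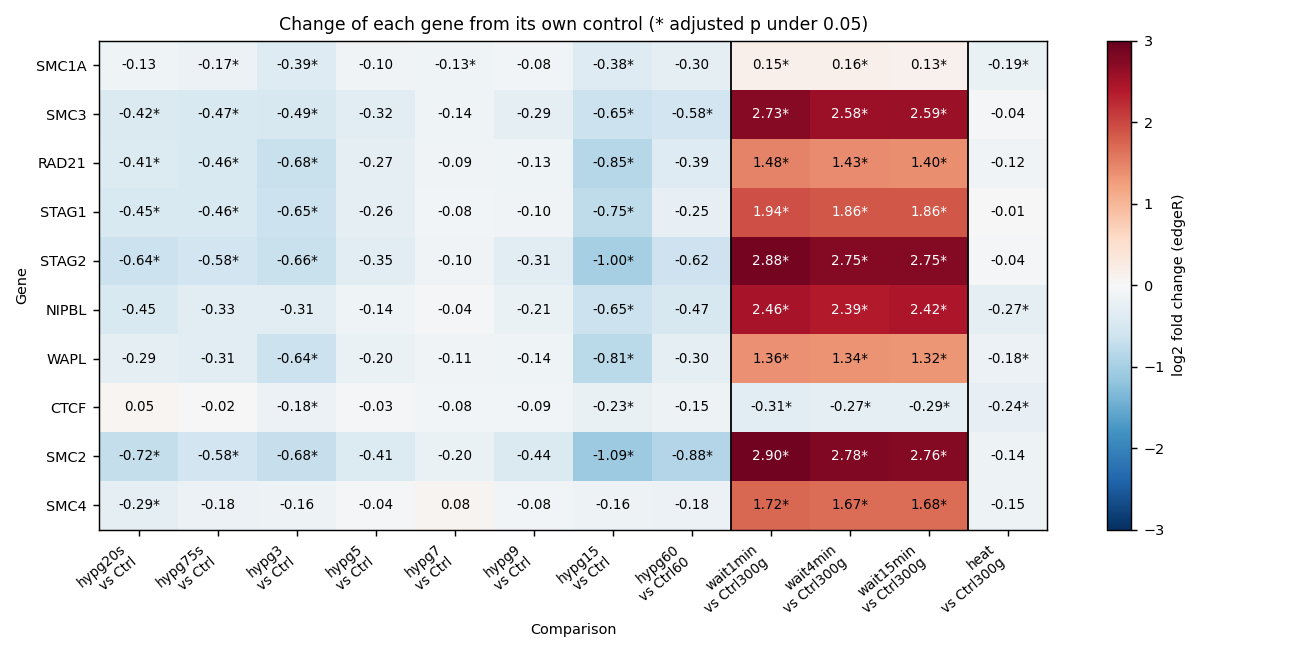
Log2 fold change from edgeR of each gene (rows) in each sample group against its own control (columns), with an asterisk where the adjusted p is under 0.05. The values at 9 g run from -1.09 to 0.08, those at 300 g reach 2.90, and CTCF is negative in all 3 groups at 300 g.

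At 9 g the genes that passed were lower, CTCF in hypg3 and hypg15 among them, which was lower at 300 g too. Against Ctrl, 6 of 10 fell in hypg20s, 6 in hypg75s, 8 in hypg3 and 9 in hypg15, and none rose in any 9 g group. With 3 surrogate variables 0 of 10 passed in hypg3 and in hypg15, where 6.23% and 1.04% of all genes did, with all groups in 1 model 1 passed in hypg20s, where 7.4% of all genes did, and with GC content corrected SMC4 was higher in hypg3 and hypg15. The background of genes called lower was 8.58%, 14.4%, 24.4% and 27.9% in these 4 comparisons, and that of genes called higher 6.66%, 16.8%, 16.9% and 25.4%. Between them, in hypg5, hypg7 and hypg9, 0, 1 and 0 of the 10 passed, where 1.69%, 6.19% and 8.34% of all genes were called lower and 4.33%, 6.64% and 11.3% higher. The member medians of the log2 fold change were -0.42 at 20 s, -0.39 at 75 s, -0.56 at 3 min, -0.23 at 5 min, -0.10 at 7 min, -0.13 at 9 min and -0.70 at 15 min, while all genes stayed within -0.02 to 0.02. All 7 comparisons share the Ctrl libraries. The libraries of hypg3 and hypg15 are numbered 69 to 80 and the remaining 9 g libraries and their controls 1 to 48, so what sets hypg3 and hypg15 apart from the other times cannot be told apart from a difference between these number ranges.

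Within the cohesin ring, SMC1A had a low, median and high of 199, 213 and 229 CPM in Ctrl and was at 145, 162, 165, 180.0 and 182 CPM in hypg15. All 5 libraries were below the lowest control (log2 fold change -0.38 ± 0.06, edgeR adjusted p 1.03e-04). RAD21 fell from 200.0, 208 and 263 CPM to 94.4, 116, 117, 132 and 145 CPM, again with no overlap (-0.85 ± 0.10, edgeR adjusted p 1.20e-05). SMC3 went from 10.1, 12.2 and 17.9 CPM to 5.93, 7.48, 8.34, 9.44 and 10.3 CPM, with 1 library inside the control range (-0.65 ± 0.16, edgeR adjusted p 0.00281). In hypg3, where 11.6% of all genes were wholly below Ctrl, SMC1A, at 141, 171 and 187 CPM, and RAD21, at 124, 131 and 163 CPM, were also wholly below Ctrl, as was STAG1 at 27.6, 34.0 and 44.4 CPM.

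STAG1 fell from a low, median and high of 46.3, 52.3 and 66.9 CPM in Ctrl to 29.9, 29.9, 31.9, 34.7 and 35.0 CPM in hypg15 (log2 fold change -0.75 ± 0.09, edgeR adjusted p 1.79e-05). STAG2 went from 42.6, 52.6 and 86.6 CPM to 18.3, 26.8, 28.3, 32.8 and 42.7 CPM (-1.0 ± 0.20, edgeR adjusted p 8.18e-04). The change of STAG2 was the larger, but its controls were more widely spread than those of STAG1, and its highest hypg15 library reached the control range.

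NIPBL went from 22.8, 30.0 and 47.6 CPM in Ctrl to 15.3, 18.6, 21.1, 23.8 and 29.5 CPM in hypg15 (log2 fold change -0.65 ± 0.19, edgeR adjusted p 0.00915), and it passed in no other 9 g group. WAPL went from 45.1, 57.6 and 72.1 CPM to 28.8, 30.4, 31.0, 37.1 and 38.9 CPM, with no overlap (-0.81 ± 0.12, edgeR adjusted p 5.87e-05), and it also fell in hypg3 (-0.64 ± 0.13, edgeR adjusted p 0.00121). CTCF moved least of the genes that passed: from 206, 219 and 223 CPM in Ctrl to 164, 190.0, 192, 194 and 201 CPM in hypg15 (-0.23 ± 0.05, edgeR adjusted p 0.00188).

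Of the condensin subunits, SMC2 had the largest change of the 10 genes in hypg15, from 29.2, 38.0 and 64.3 CPM to 11.2, 19.0, 19.9, 22.2 and 27.9 CPM, with no overlap (log2 fold change -1.09 ± 0.22, edgeR adjusted p 7.31e-04). SMC4 was the single gene that did not pass there, at 66.9, 70.3, 72.2, 77.6 and 85.0 CPM against 67.4, 78.9 and 102 CPM in Ctrl (-0.16, 95% interval -0.35 to 0.03, edgeR adjusted p 0.179). In hypg20s it was called lower (-0.29 ± 0.09, edgeR adjusted p 0.0381), but not with GC content corrected (0.023, edgeR adjusted p 0.794), with total counts alone (edgeR adjusted p 0.0684), or without any one of library 2, 3 or 5 of Ctrl or library 13, 14, 15, 17 or 18 of hypg20s. In hypg15, 6 of the 10 genes were apart from Ctrl (SMC1A, RAD21, STAG1, WAPL, CTCF and SMC2), all below it, as were 17.5% of all genes. In hypg75s these were RAD21 and STAG1, with 6.55% of all genes wholly below.

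After 20 s of exposure, SMC2 (-0.72 ± 0.17), STAG2 (-0.64 ± 0.19), STAG1 (-0.45 ± 0.12), SMC3 (-0.42 ± 0.13) and RAD21 (-0.41 ± 0.10) fell together with SMC4, with edgeR adjusted p-values of 0.0137 to 0.0430. No gene of the 10 was apart from Ctrl, where 5.75% of all genes were. Without library 14 of hypg20s 2 genes passed, and 3 passed without library 2 or 3 of Ctrl or library 13, 15 or 17 of hypg20s. The highest count with 1 library left out was 9, and SMC1A, NIPBL and WAPL passed without library 16 of hypg20s.

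In hypg5, edgeR called 0 of 10 genes, 2 had an unadjusted p under 0.05 and DESeq2 called 0. In hypg9 these counts were 0, 3 and 1. No share of all genes is given for counts at an unadjusted p. In hypg7 SMC1A alone passed, at -0.13 ± 0.04 (edgeR adjusted p 0.0443), and DESeq2 called 2. That 1 call was lost without any one of Ctrl libraries 1, 3, 4, 5 and 6 or hypg7 libraries 31, 33, 34, 35 and 36, and without library 32 of hypg7 2 genes passed. In hypg9 1 gene passed without library 6 of Ctrl. RAD21 in hypg5 ran from 114 to 229 CPM, a range that holds all 6 values of hypg3 and 5 of the 6 of Ctrl. Of all genes called in hypg7 48.2% were lower, 32.7% with total counts alone and 66.5% with GC content corrected, and in hypg9 these shares were 42.5%, 26.4% and 63.5%. In hypg20s, hypg75s and hypg5 they were 56.3%, 46.2% and 28.1%, and 42.3%, 58.2% and 62.5% with GC content corrected. In the direct comparisons of exposed groups edgeR called 0 of 10 between hypg15 and hypg3, with 0 at an unadjusted p under 0.05 and 0 in DESeq2, where 2.54% of all genes were called, and 0 of 10 between hypg9 and hypg75s, with 2 at an unadjusted p under 0.05 and 2 in DESeq2, where 5.0% were called. Between hypg9 and hypg75s 9 of the 10 values were above 0, the highest being STAG1 (0.36 ± 0.12, edgeR adjusted p 0.0856) and RAD21 (0.33 ± 0.09, edgeR adjusted p 0.0554), and 2 genes passed without library 42 of hypg9 and 1 without library 41.

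After 60 min, 2 of the 10 genes were lower than in Ctrl60, where 13.0% of all genes were called lower and 17.1% higher, the lower being 43.2% of those called, 30.4% with total counts alone and 60.4% with GC content corrected. SMC2 fell from a low, median and high of 35.4, 36.6 and 75.5 CPM to 19.9, 21.3 and 41.3 CPM (log2 fold change -0.88 ± 0.22, edgeR adjusted p 0.00780), and SMC3 from 10.6, 11.9 and 19.7 CPM to 7.36, 8.53 and 13.8 CPM (-0.58 ± 0.18, edgeR adjusted p 0.0237). The highest hypg60 value of both genes was that of library 44. Without it 9 of the 10 genes were called lower, where 22.2% of all genes were, all but SMC4 at -0.24 (edgeR adjusted p 0.130). STAG2 was then at -0.98, SMC2 at -1.08, SMC3 at -0.73, NIPBL at -0.65, RAD21 at -0.58, WAPL at -0.55, STAG1 at -0.52, SMC1A at -0.38 and CTCF at -0.18. Conversely, 1 gene passed without library 9 or 10 of Ctrl60 or library 43 or 45 of hypg60.

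The difference between both accelerations was tested as an interaction, wait1min against Ctrl300g minus hypg5 against Ctrl, since both lasted 5 min. All 10 genes passed, where 72.6% of all genes did, 34.7% higher and 37.9% lower. The difference ran from 1.56 ± 0.22 (WAPL) to 3.31 ± 0.27 (SMC2) for 8 genes, with 3.23 ± 0.30 for STAG2 and 3.06 ± 0.18 for SMC3. It was 0.26 ± 0.11 for SMC1A (edgeR adjusted p 0.0395) and -0.28 ± 0.06 for CTCF (edgeR adjusted p 1.36e-04). DESeq2 called 9 of 10. SMC1A no longer passed without any one of 12 libraries, which are 1, 3 and 6 of Ctrl, 30 of hypg5, all 4 of Ctrl300g and all 4 of wait1min, and its value without 1 library ran from 0.19 to 0.30. Cell density, volume and vessel also differed between the experiments, and their part in this difference cannot be told apart from that of acceleration.

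The changes of the 10 genes lay along a trend that ran through all genes, with exon GC content. In hypg15, the decile of genes with the lowest GC content, at or under 38.9%, had a median log2 fold change of -0.60, and the decile with the highest, at or above 61.7%, had 0.27. In wait1min these medians were 1.76 and -0.66, and in heat they were -0.05 and 0.05. Against genes of like GC content, SMC2 and STAG2 went further down in hypg15 and further up in wait1min, SMC4 lay above its peers in hypg15 and at their median in wait1min, and CTCF lay below its peers in wait1min and in heat.

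**Figure D3:**
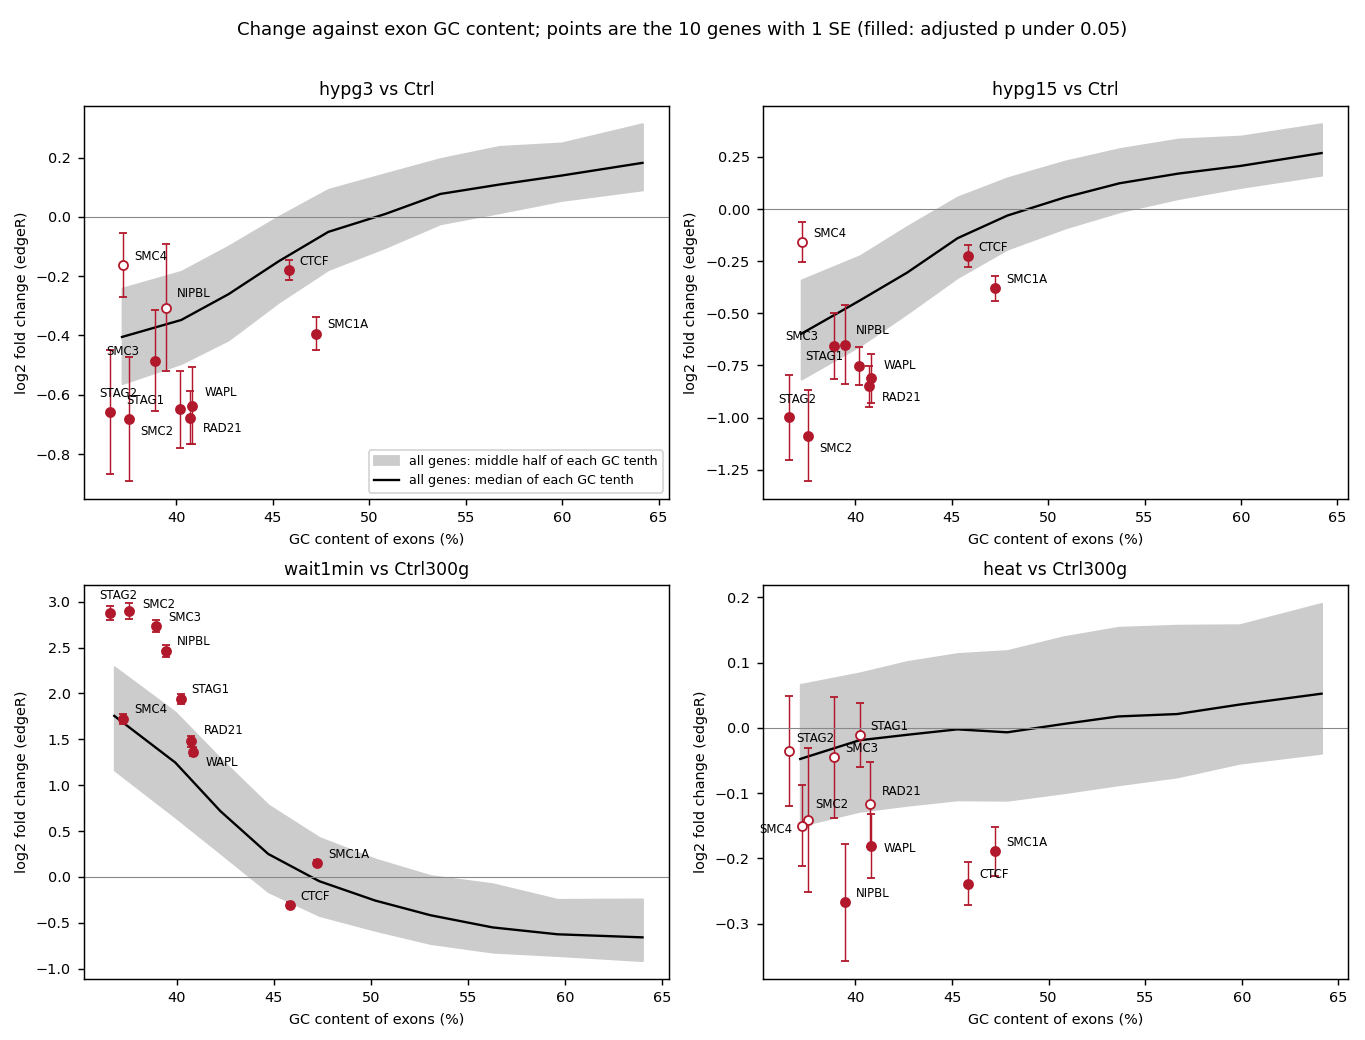
Log2 fold change of the 10 genes (points, bars 1 SE, filled where the edgeR adjusted p is under 0.05) against exon GC content in percent, over the median (line) and interquartile range (band) of all genes in 10 GC bins. The line runs from -0.60 to 0.27 in hypg15 and from 1.76 to -0.66 in wait1min, and most of the 10 genes sit beyond it at its low-GC end.

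The same trend was present in single libraries. Each library was given a balance, the median level of the lowest GC decile minus that of the highest, on a log2 scale from the mean of all 79 libraries and over 8911 genes other than the 10. The group medians of this balance were -0.12 in Ctrl, -0.22 in Ctrl60, -0.54 in hypg20s, -0.45 in hypg75s, -0.72 in hypg3, -0.31 in hypg5, -0.15 in hypg7, -0.28 in hypg9, -0.88 in hypg15 and -0.62 in hypg60. They were -0.22 in Ctrl300g, 2.17 in wait1min, 2.01 in wait4min, 2.04 in wait15min and -0.27 in heat. The balance was highest in the 3 groups at 300 g, where the mean level of the 9 genes without CTCF was highest too. In hypg60, library 44 had a balance of 0.38 against -0.85 to -0.37 in the other 5 of hypg60, and a 9-gene mean of 0.30 against -0.75 to -0.42. Libraries 9 and 10 of Ctrl60, at 0.44 and 0.13, and library 49 of Ctrl300g, at 0.06 against -0.31 to -0.15, were likewise the highest of their groups. The part of library preparation in this balance was not tested.

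**Figure D4:**
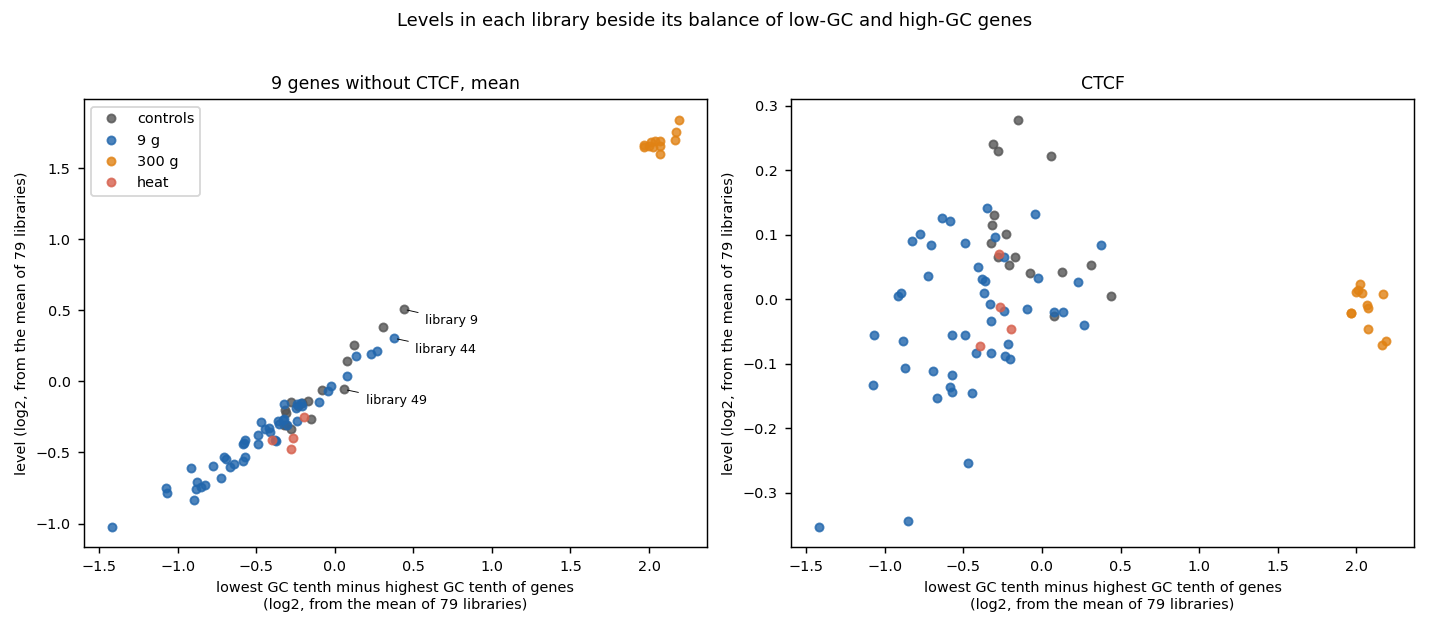
Level in each of 79 libraries (points, coloured by kind of group) on a log2 scale from the mean of all libraries, for the mean of 9 genes and for CTCF, against the balance of low-GC and high-GC genes in the same library. The 9 genes rise along the balance from hypg15 to the 300 g libraries at its right end, and CTCF does not.

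A correction that removed the GC trend in each library left part of the pattern. In wait1min 8 genes stayed called higher and CTCF lower, while SMC1A, at 0.05, no longer passed (edgeR adjusted p 0.190). The log2 fold changes became 1.39 for SMC3, 1.38 for SMC2, 1.25 for STAG2, 1.20 for NIPBL, 0.79 for STAG1, 0.42 for RAD21, 0.32 for WAPL and 0.17 for SMC4, with a member median of 0.61 beside -0.12 over all genes. CTCF went to -0.55. Of all genes 75.2% were called after this correction. In hypg15 7 genes stayed called lower, with SMC2 at -0.54, RAD21 at -0.45, STAG2 at -0.43, WAPL at -0.41, SMC1A at -0.33, STAG1 at -0.31 and CTCF at -0.12. SMC3 at -0.16 and NIPBL at -0.18 no longer passed, and SMC4 was called higher at 0.41 ± 0.08 (edgeR adjusted p 2.98e-04), where 38.1% of all genes were called. In hypg3 4 genes stayed lower and SMC4 was called higher at 0.23, with 25.5% of all genes called. In hypg60 6 genes were lower, with 42.6% of all genes called, and in hypg9 3 were, with 30.0%. With heat 5 were lower, SMC4 with the other 4, and 30.3% of all genes were called.

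The change of SMC1A at 300 g depended on the correction used. With exon length corrected in place of GC it fell by 0.58 on the log2 scale in wait1min, and with both corrected it fell by 0.13. SMC1A has one of the longest exon totals, at percentile 90.6 of the genes tested. The other 9 genes kept their direction in wait1min under each of the 3 corrections.

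**Figure D5:**
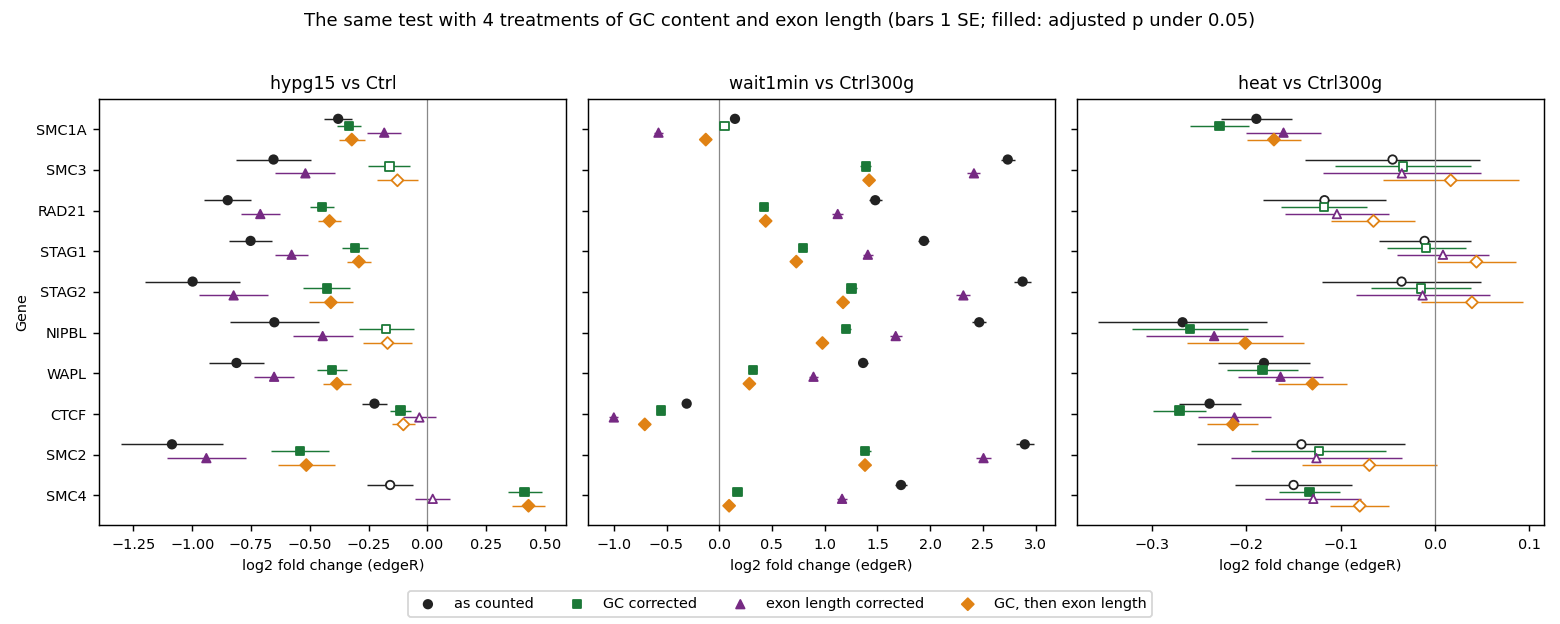
Log2 fold change of each gene (bars 1 SE, filled where the edgeR adjusted p is under 0.05) as counted, with GC corrected, with exon length corrected, and with both. SMC4 in hypg15 moves from -0.16 to 0.41 with GC corrected, and SMC1A in wait1min from 0.15 to -0.58 with exon length corrected.

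Partner genes changed by unequal amounts, and the ratios of their levels per kilobase of exon (RPKM) were compared with an exact two-sided permutation test over libraries. There were 52 tests in all, chosen after the values were seen. The RPKM ratio of SMC4 to SMC2 rose from 1.58 in Ctrl (range 1.26 to 1.83) to 2.28 in hypg3 (1.87 to 3.02) and 3.06 in hypg15 (2.41 to 5.50), each with an exact p of 0.00216 and an adjusted p of 0.0375. It also rose from 1.53 in Ctrl60 to 2.50 in hypg60, with no overlap (exact p 0.00216, adjusted p 0.0375). At 300 g it went the other way, from 2.21 in Ctrl300g (1.97 to 2.38) to 0.978 in wait1min (0.908 to 1.02). With heat it was 2.20.

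At 300 g 4 libraries against 4 allow no exact p below 0.0286, and after adjustment this was 0.0743, so no ratio could pass. Each of the 4 ratios was nevertheless apart there. The RPKM ratio of SMC1A to SMC3 was 9.10 to 12.0 in Ctrl300g and 1.65 to 1.85 in wait1min. The RPKM ratio of STAG1 to STAG2 went from 0.872 to 0.456, and that of NIPBL to WAPL from 0.369 to 0.795. Per kilobase, the span between the highest and lowest of the 10 genes shrank from 11.8-fold in Ctrl300g to 4.46-fold in wait1min, where RAD21 was at 63.1 ± 3.68 RPKM and SMC3 at 14.2 ± 0.692.

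Over the 12 comparisons of a treated group with its own control, which share controls, the log2 fold changes of the 45 gene pairs had a median Pearson r of 0.983, and the 9 pairs with CTCF were negative, from -0.70 to -0.33. Over the 8 comparisons at 9 g alone the median r was 0.764, and for the 9 pairs with CTCF it was 0.498, from -0.12 to 0.82, with 1 pair negative. With GC content corrected the median over all 45 pairs was 0.904, the 8 pairs of SMC4 with genes other than CTCF went from 0.86 to 0.996 down to -0.12 to 0.29, and the r of SMC4 to the member median went from 0.989 to 0.0971. The 300 g groups hold the largest changes and so weigh most in r. Among 8915 genes averaging 10 CPM or more, those with a pattern most like the member median were NAMPT (r = 0.9997), the cohesin regulator PDS5B (0.9995), SUV39H2 (0.9995), MYEF2 (0.9995) and DNAJC10 (0.9994), with an exon GC content of 36.3% to 41.1%. The least alike were CIZ1 (-0.9991), HGH1 (-0.9989) and DEAF1 (-0.9989), with 58.4% to 64.8%.

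A list of 38 other genes of the same processes was followed, of which 36 were tested. In wait1min 22 rose and 13 fell, where 41.4% of all genes tested were called higher and 40.1% lower, and the list median of the log2 fold change was 0.73 beside 0.01 over all genes. Genes of both directions were found in each group of the list. Of the 11 cohesin regulators 6 rose, among them PDS5B (2.10 ± 0.06), which works with WAPL, and the acetyltransferases ESCO1 (2.39 ± 0.10) and ESCO2 (2.35 ± 0.07), and 5 fell, among them MAU2 (-0.32 ± 0.04), the partner of NIPBL. Of the 6 non-SMC condensin subunits NCAPG (2.24 ± 0.07) and NCAPG2 (0.83 ± 0.04) rose and 4 fell, NCAPH2 most at -0.77 ± 0.04. After the GC correction 1 of these 6 was higher and 5 were lower. The SMC5/6 complex, an SMC complex that acts in DNA repair, had 6 risers, led by SMC5 (2.94 ± 0.08), the largest rise of the list, and 2 that fell, NSMCE1 (-0.93 ± 0.05) and NSMCE3 (-0.68 ± 0.05). Of the other chromatin genes 6 rose, led by SMCHD1 (2.53 ± 0.05), and the zinc finger gene MAZ had the largest fall of the list (-1.03 ± 0.04). All these adjusted p-values from edgeR were under 0.05. The counts were 22 and 14 in wait4min and 22 and 13 in wait15min, where 82.2% and 82.3% of all genes were called.

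In hypg15 5 of the 36 rose and 20 fell, where 25.4% of all genes were called higher and 27.9% lower, with a list median of -0.25. After the GC correction 5 were higher and 14 lower, with a median of -0.10, where 2576 of 15682 genes were called higher and 3401 lower. The largest falls were those of the DNA topoisomerases TOP2B (-1.22 ± 0.20) and TOP2A (-1.11 ± 0.13), and the largest rises those of the meiotic kleisin REC8 (0.64 ± 0.21, which did not pass after the GC correction, at 0.42 with an edgeR adjusted p of 0.114) and of ESPL1 (0.34 ± 0.05), the separase that cuts RAD21. Of the 6 non-SMC condensin subunits 4 fell, NCAPG most at -0.90 ± 0.15, and 1 rose. After the GC correction 3 of these were lower and 0 higher. Over the whole list, the counts of higher and lower genes were 2 and 8 in hypg20s, 4 and 12 in hypg75s and 3 and 17 in hypg3. They were 1 and 1 in hypg5, 1 and 3 in hypg7, 4 and 4 in hypg9 and 2 and 9 in hypg60. In these groups 4.33% to 17.1% of all genes were called higher and 1.69% to 24.4% lower. After the GC correction these counts were 3 and 6 in hypg20s, where 929 and 682 of 15931 genes were called higher and lower. In hypg75s they were 2 and 11 (1635 and 2276 of 16052 genes), and in hypg3 3 and 11 (1617 and 2454 of 15984). In hypg5 they were 1 and 3 (768 and 1279 of 16075), and in hypg7 1 and 8 (1141 and 2262 of 16210). In hypg9 they were 3 and 12 (1767 and 3079 of 16166), and in hypg60 4 and 12 (2713 and 4140 of 16104). With heat 3 of the 36 rose and 3 fell, where 10.6% of all genes were called higher and 10.2% lower. EID3 (0.67 ± 0.13), NSMCE4A (0.21 ± 0.05) and DDX11 (0.17 ± 0.03) were higher, and TOP2B (-0.31 ± 0.08), YY1 (-0.25 ± 0.04) and NCAPH (-0.13 ± 0.03) lower. With GC content corrected the counts with heat were 3 and 8, where 1477 of 16430 genes were called higher and 3506 lower. After the GC correction 21 of the 36 were called higher and 12 lower in wait1min, where 5186 of 16918 genes were higher and 7535 lower. The list median was then 0.31, and of the 11 cohesin regulators 8 were higher and 2 lower. Genes of the list named beyond the 2 largest changes in each direction were chosen after their values were seen.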

How the data were processed

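RNA of 80 Jurkat libraries was rRNA-depleted and sequenced as stranded read pairs. Per the labels and the file headers, the authors trimmed reads with Trim Galore 0.6.5, aligned them with STAR 2.7.3a to hg38 and counted pairs on the reverse strand with featureCounts (2.0.1 in the labels, 2.0.3 in the header) on Ensembl release 104. The deposited table holds raw counts per gene, which were used as deposited. Its gene length column gives exon bases, written by the authors' counting program, and was used for RPKM. Groups came from sample titles. The table's column names differ from the titles in 3 groups: Ctrl60 appears as Ctrl plus HEPES, wait1min as instant, and wait4min as 1min. The record of ANK2, broken over 3 lines, was left out, which left 60663 genes, 60462 with a symbol and 58336 with an exon GC content. This GC content is that of the longest transcript of the gene in GENCODE release 29, not of all exons counted.

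Each of 18 comparisons was fitted on all genes of its groups with edgeR 4.0.16 in R 4.3.3 (glmQLFit, glmQLFTest, TMM, filterByExpr with a minimum count of 10, Benjamini-Hochberg adjustment, called under 0.05). Standard errors were derived from the log2 fold change and F. CPM used TMM-scaled library sizes over 79 libraries. GC and length corrections were lowess offsets (span 0.3, prior count 2) per library. The GC balance used log2 of CPM plus 0.5. Exact permutation tests and figures were made in Python 3.11.15 with scipy 1.17.1 and matplotlib 3.10.9. Scripts were tested on simulated data. The members, gene lists and ratios were chosen with earlier results of these data known, and named genes are the 10 members, the 5 most and 3 least alike patterns among genes averaging 10 CPM or more, and the 2 largest changes each way in the related list, and other genes of that list were named after their values were seen. Alternatives were DESeq2 1.42.0, RLE and total-count scaling, no filter, all groups in 1 model, 3 surrogate variables from sva 3.50.0, the corrections, library 75 kept, and each library left out.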

Additional observations from a re-analysis of the deposited data

Results flagged for a closer look

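The level of a gene in 1 library stood far from the rest of its group in 17 of 150 combinations of gene and group, over 8 of the 10 genes, by Dixon's test at its 95% critical value. Chance flags about 1 in 20 such groups, and the flags here are not independent because the same libraries recur. Library 44 of hypg60 was the highest in 7 genes: SMC3 at 13.8 CPM (next 8.92), RAD21 at 265 CPM (next 164), STAG1 at 79.7 CPM (next 41.4), STAG2 at 87.0 CPM (next 35.0), NIPBL at 42.9 CPM (next 24.9), WAPL at 81.5 CPM (next 44.9) and SMC2 at 41.3 CPM (next 25.5). Library 49 of Ctrl300g was the highest in 4: STAG1 at 33.7 CPM (next 31.1), STAG2 at 44.4 CPM (next 36.3), NIPBL at 40.5 CPM (next 32.5) and SMC2 at 44.2 CPM (next 32.9). Library 68 of heat was the highest for RAD21 at 139 CPM (next 119) and SMC4 at 99.0 CPM (next 84.1). The other 4 were RAD21 in library 3 of Ctrl at 263 CPM (next 212), RAD21 in library 64 of wait15min, the lowest at 346 CPM (next 369), STAG2 in library 59 of wait4min at 273 CPM (next 258) and NIPBL in library 16 of hypg20s at 34.0 CPM (next 24.7).

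The effects of 5 min at 300 g and of 5 min at 9 g differed in edgeR's interaction test for all 10 genes. The log2 differences were 0.26 for SMC1A, 3.06 for SMC3, 1.75 for RAD21, 2.21 for STAG1, 3.23 for STAG2, 2.60 for NIPBL, 1.56 for WAPL, -0.28 for CTCF, 3.31 for SMC2 and 1.77 for SMC4. With GC content corrected SMC1A (edgeR adjusted p 0.142) and SMC4 (edgeR adjusted p 0.172) no longer passed.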

How the results depend on the processing

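Precision is limited by the spread between libraries, which at 9 g was wide for SMC2, STAG2 and NIPBL, and by 4 libraries a group at 300 g. No paired analysis was possible because the library numbers 1 to 80 are all different. A change of sign between values of which neither passed was not counted as a reversal. DESeq2, RLE factors, total counts, no filter, all groups in 1 model and leaving out 1 library reversed no gene.

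Leaving out 1 library gave these lowest and highest counts of genes called of 10: 2 to 9 in hypg20s, 4 to 7 in hypg75s, 6 to 8 in hypg3, 0 to 2 in hypg7, 0 to 1 in hypg9, 9 in hypg15, 1 to 9 in hypg60, 10 in each 300 g group, 3 to 6 with heat, 9 to 10 in the interaction and 0 to 2 in hypg9 against hypg75s. Total counts alone gave 3 in hypg20s, where 1005 of 16137 genes were called higher and 1030 lower. They gave 0 in hypg7 (1720 higher and 836 lower of 16438 genes) and 1 in hypg60 (3364 and 1471 of 16318). With heat they gave 2 (2252 and 1173 of 16655). No filter gave 0 in hypg7 (770 and 767 of 34104 genes) and 1 in hypg9 (1464 and 1289 of 33980). It gave 5 in hypg60 (2530 and 2135 of 33812) and 7 with heat (1974 and 1975 of 33066). It also gave 2 in hypg9 against hypg75s (327 and 353 of 33928) and 2 in wait15min against wait1min (22 and 256 of 34548). All groups in 1 model gave 1 in hypg20s (828 and 499 of 17941 genes) and 0 in hypg7 (1160 and 889 of 17941). In hypg60 this model gave 6 (3712 and 3466 of 17941). DESeq2 gave 2 in hypg7 (1008 and 1387 of 17574 genes) and 1 in hypg9 (1514 and 1796 of 17510). In hypg9 against hypg75s DESeq2 gave 2 (496 and 723 of 15509), where RLE gave 1 (313 and 463 of 16319). With library 75 kept, 3 passed in hypg15, where 2694 of 15736 genes were called higher and 2412 lower.

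With 3 surrogate variables 0 passed in hypg3 (579 higher and 539 lower of 17941 genes), hypg7 (342 and 410) and hypg15 (70 and 116). In hypg60 1 passed (1110 and 1033), and 3 passed in hypg9 against hypg75s (1149 and 1031). The signs then turned for SMC1A in hypg75s (0.027), hypg3 (0.044) and hypg15 (0.16), for CTCF in hypg3 (0.041) and hypg15 (0.027), and for STAG1 (0.022) and WAPL (0.062) in hypg15, none of which passed.

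GC correction gave 5 in hypg3, 3 in hypg9, 6 in hypg60 and 2 in hypg9 against hypg75s (344 higher and 629 lower of 16100). Exon length correction gave 0 in hypg7 (702 and 1059 of 16438) and 2 in hypg9 (1375 and 1751 of 16385). It gave 6 in hypg60 (2532 and 2607 of 16318) and 2 in hypg9 against hypg75s (335 and 580 of 16319). Both together, chosen after seeing the data, gave 5 in hypg3 (1683 and 2378 of 15984) and 1 in hypg5 (795 and 1386 of 16075). They gave 4 in hypg9 (1577 and 3061 of 16166) and 7 in hypg60 (2594 and 4030 of 16104). In hypg9 against hypg75s they gave 2 (375 and 740 of 16100). SMC4 turned with GC, and with both, to 0.023 and 0.021 in hypg20s, 0.23 and 0.24 in hypg3, and 0.41 and 0.43 in hypg15. SMC1A turned with length, and with both, to -0.58 and -0.13 in wait1min, -0.56 and -0.12 in wait4min, -0.59 and -0.15 in wait15min, and -0.50 and -0.014 in the interaction. In heat against wait1min SMC1A turned to 0.41 with length, and CTCF to 0.27 with GC, 0.78 with length and 0.49 with both. GC correction moved the median of all genes by -0.13 in wait1min, and length correction by -0.32. The causes were not tested.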
